A study of Mus musculus with 20 samples.

Results

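The data describe 10 transcription factors of the corneal epithelium, *Pax6*, *Klf4*, *Klf5*, *Elf3*, *Ehf*, *Trp63*, *Grhl2*, *Grhl3*, *Sox9* and *Foxc1*, in mouse corneas of 4 ages. They were taken by gene symbol from a table of 24552 genes, all 10 were found, and all 10 passed the filter on low expression that left 11288 genes for testing. The samples were 20 RNA libraries from naive, wild-type female C57BL/6J mice, 5 libraries at each of 2 to 3, 12 to 13, 18 to 19 and 24 to 25 months, named here by the lower age in months (the 2-month group is the young group and the other 15 libraries are the aged ones). Each library held the epithelium debrided from both corneas of 1 animal, so the 5 libraries of an age are 5 animals. The methods name bought, in-house aged and received mice without assigning them to an age, so origin and age cannot be told apart.

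Corneal epithelium is a stratified, non-keratinized tissue that is renewed from stem cells of the limbus, the rim where the cornea meets the conjunctiva. Its identity depends on a small network of DNA-binding proteins: PAX6 directs eye development and keeps the corneal keratin program active, p63 (encoded by *Trp63*) sustains basal and stem cells, and the Kruppel-like (KLF), ETS (ELF3, EHF) and grainyhead-like (GRHL) factors act in barrier formation and differentiation. SOX9 is best known from progenitor cells of many epithelia and from cartilage, and FOXC1 from the development of the anterior segment of the eye.

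Between 6699383 and 10762360 reads per library lay on genes, with a median of 8731333. Values are normalized counts, that is reads divided by the size factor of the library, and changes are differences of log2(normalized count + 1). A gene was called a differentially expressed gene (DEG) at a Benjamini-Hochberg adjusted p of 0.05 or less in limma and a change of at least 1.2-fold. The tissue label was checked against its markers. Of 22 genes typical of corneal epithelium, 21 were in the table and none of these 21 was at 0 in all libraries of an age, and the summed level of these markers ran from 548836 to 669624 normalized counts in the young libraries and from 582298 to 635916 at 24 months. Reads of genes listed for other tissue were also present. The summed level of 10 genes of stromal keratocytes ran from 2239.98 to 5703.95 normalized counts in the young libraries and from 604.15 to 1304.47 at 24 months. That of 8 genes of tear and eyelid glands ran from 445.05 to 10229 in the young libraries, with none of the 8 genes at 0 throughout, and from 0 to 89.4 at 24 months, with *Mup4*, *Mup5* and *Lcn11* at 0 in every 24-month library. The sum of 13 genes listed for skin and conjunctiva was larger, at 28689.5 to 50056 in the young libraries and 25320 to 30554 at 24 months. *Krt13*, which the authors name as a conjunctival keratin, held 24448 to 42636 when young and 22800 to 27459 at 24 months. How much of the keratocyte sum, the gland sum and the skin and conjunctiva sum came from other tissue was not tested.

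*Sox9* was the factor that differed with age, and the other 9 were not DEGs in any comparison. It rose by 0.80 on the log2 scale from 2 to 24 months (SE 0.13, 95% confidence interval 0.53 to 1.07, limma adjusted p = 0.000814). The mean was 778 ± 86.2 normalized counts in the young group (SD, n = 5), 1059 ± 172 at 12 months, 1183 ± 158 at 18 months and 1361 ± 238 at 24 months. *Sox9* (NCBI gene 20682, chr11:112782210-112787757 on GRCm38, plus strand) has a single transcript in the GENCODE annotation and no overlapping gene. In bulk tissue, fewer or more cells of a type and less or more RNA per cell cannot be told apart.

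In the young libraries *Sox9* stood at 782.7, 897.8, 704.1, 687.7 and 819.6 normalized counts, and in the 24-month libraries at 1762, 1360.4, 1289, 1249 and 1143. The groups did not overlap, and the lowest 24-month library lay above the highest young one. At 18 months the values were 1314, 987.6, 1368, 1086 and 1159, again all above the young range, and at 12 months they were 1109, 948.4, 893.6, 1012 and 1332. One 12-month library, replicate 3, fell inside the young range, just under its top, so 14 of the 15 aged libraries lay above every young library and none lay below.

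**Figure D1:**
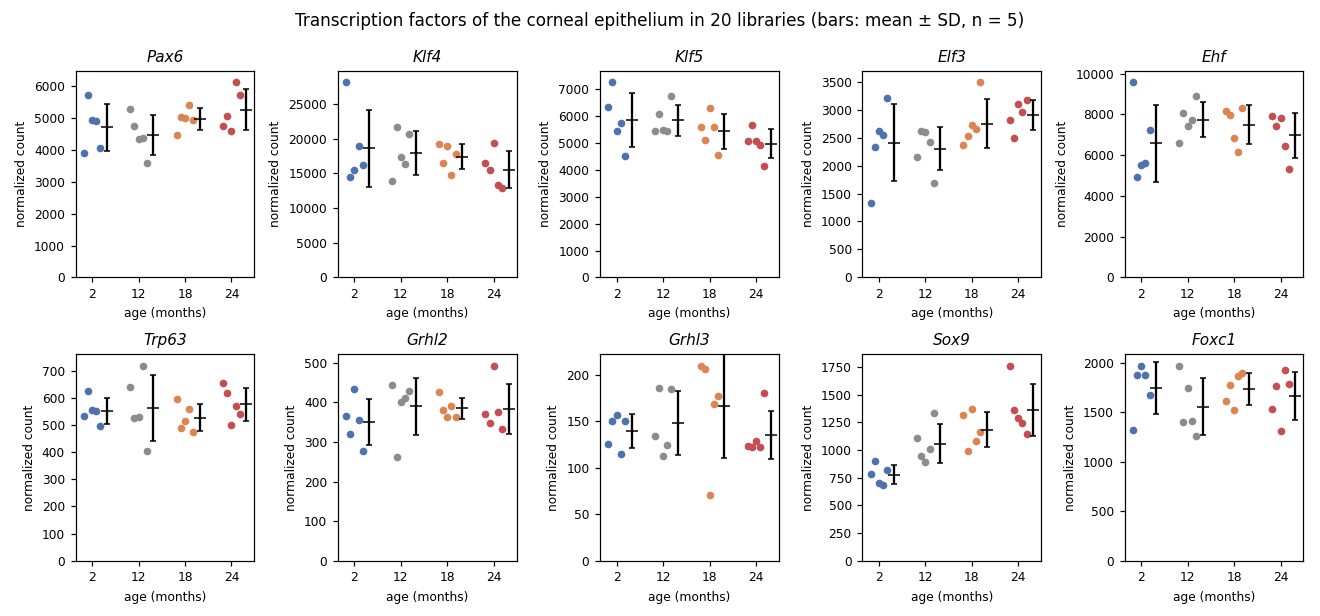
Normalized counts (vertical axes, from 0) of the 10 factors in each library against age in months (horizontal axes). Points are libraries and bars are the mean ± SD of 5 libraries. The points of *Sox9* at 18 and 24 months all lie above those at 2 months, from a mean of 778 at 2 months to 1361 at 24 months, and in the other 9 panels the ages overlap.

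The change of *Sox9* was called in 4 of the 6 comparisons. It was 0.60 at 18 against 2 months (adjusted p = 0.0196), 0.61 in all aged against young libraries (adjusted p = 0.00425) and 0.79 as a linear trend over the 22 months from 2 to 24 (adjusted p = 0.000384), besides the 24-month value above. At 12 months it was 0.44 (95% confidence interval 0.17 to 0.71) with an adjusted p of 0.174 in limma, which is not a call. The exact permutation p, two-sided and over libraries, was 0.0159 at 12 months and 0.00794 at 18 and at 24 months, the smallest that 5 libraries against 5 can give, and 0.000129 for 15 aged against 5 young. Neighbouring aged groups did not differ beyond their spread, with an exact permutation p of 0.238 for 18 against 12 months and 0.214 for 24 against 18 months. From 12 to 24 months the difference was 0.36 (adjusted p = 0.213 in limma, exact permutation p = 0.0476). The call at 18 months was lost, at an adjusted p between 0.0652 and 0.0926 in limma, without young replicate 3, young replicate 4, 18-month replicate 1 or 18-month replicate 3.

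The share of tested genes called gives the background for these counts. It was 0.532% at 12 against 2 months, 0.673% at 18 against 2 months, 0.78% at 24 against 2 months, 1.01% in all aged against young, 0.195% at 24 against 12 months and 0.718% in the trend with age. Of the 10 factors, 1 (*Sox9*) was called at 18 months, at 24 months, in all aged libraries and in the trend, and 0 were called at 12 against 2 months and at 24 against 12 months. At an unadjusted limma p below 0.05, 1 factor stood at 12 against 2 months beside 9.56% of all tested genes, and 2 stood at 24 against 12 months beside 14.7%. With voom on the recovered reads, 0 factors passed the adjusted threshold in both. Libraries of the groups did not overlap for 2.05% of tested genes at 18 against 2 months and for 2.81% at 24 against 2 months, and in both for 1 of the 10 factors, *Sox9*. The median change of the 10 factors at 24 against 2 months was 0.09 on the log2 scale, beside 0.01 over all tested genes.

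Age accounted for 71.9% of the variation of *Sox9* over the 20 libraries (share of the sum of squares of log2 values between ages). For the other 9 factors the share ran from 5.11% for *Grhl3* to 24.3% for *Klf5*, beside a median of 17.2% over all tested genes. Within ages *Sox9* varied with an SD of 0.21 on the log2 scale, inside the range of the 10 factors from 0.18 for *Pax6* to 0.40 for *Grhl3*, and the median over tested genes was 0.39. A ratio inside a library does not depend on its scaling. *Sox9* stood at 13.98 to 20.2 per 100 normalized counts of *Pax6* in the young libraries (median 15.7), 19.95 to 37.2 at 12 months (median 20.9995), 19.6 to 29.5 at 18 months (median 23.4) and 19.9 to 37.0 at 24 months (median 26.9). The exact permutation p against the young group for the log2 ratio was 0.0238 at 12, 0.0397 at 18 and 0.0317 at 24 months, not adjusted for the 3 tests, a ratio chosen after the values were seen. The ranges of this ratio overlapped at the edge, since the lowest aged libraries lay just below the highest young one.

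Over the 20 libraries the genes whose log2 levels followed *Sox9* most closely were *Gstm5*, a glutathione transferase (Pearson r = 0.80), and *Adamdec1*, a secreted metalloprotease (r = 0.79). Neither was a DEG at 24 against 2 months, with log2 changes of 0.73 for *Gstm5* and 1.16 for *Adamdec1*. These correlations include the difference between ages and carry no test. Deviations of *Sox9* from the age means showed no relation past the test with those of the mean log2 level of the keratocyte genes (r = 0.08, permutation p = 0.737, rho = 0.08) or the gland genes (r = -0.31, permutation p = 0.148, rho = -0.37), and none of the 50 relations of a factor with such a measure passed adjustment. Without the 2 libraries farthest from the median of the measure, the r of *Sox9* was 0.17 with the keratocyte and -0.48 with the gland genes. At 24 months 7 of 10 keratocyte genes and 5 of 6 tested gland genes fell while *Sox9* rose, and the part of other tissue in its change was not tested.

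*Pax6* (NCBI gene 18508, chr2:105668896-105698410, plus strand) showed no call in any comparison. Its mean was 4702 ± 744 normalized counts in the young group, 4466 ± 623 at 12 months, 4966 ± 335 at 18 months and 5253 ± 647 at 24 months. Young libraries read 3887, 5714, 4938, 4918 and 4052 normalized counts and the 24-month libraries 4760, 5065, 4597, 6111 and 5734. At 24 months 2 libraries exceeded the whole young range and the rest lay inside it. The difference between 24 and 2 months was 0.17 on the log2 scale, with a 95% confidence interval of -0.07 to 0.40 (limma adjusted p = 0.678). Reads of the antisense gene *Pax6os1*, which overlaps *Pax6*, ranged from 12 to 87 per library, and the strand setting of the counting is not given in the sources used here. *Krt12*, the corneal keratin that PAX6 is known to drive, had a change of -0.02 (interval -0.29 to 0.25, adjusted p = 0.983).

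The 2 Kruppel-like factors both had lower means at 24 months, and neither difference passed the test. *Klf4* (NCBI gene 16600, chr4:55527137-55532475, minus strand), which drives terminal differentiation, read 28132, 14506, 15509, 19018 and 16183 normalized counts in the young libraries and 16563, 15431, 19450, 13306 and 12899 at 24 months. Young replicate 1 was the highest of all 20 libraries for *Klf4*, and 2 of the 24-month libraries lay below every young one. The change was -0.24 on the log2 scale (interval -0.55 to 0.07, adjusted p = 0.641 in limma), and -0.08 without young replicate 1. *Klf5* (NCBI gene 12224, chr14:99298691-99313412, plus strand), a factor of proliferating epithelium, read 6333, 7248, 5436, 5755 and 4526 in the young libraries and 5061, 5650, 5080, 4932 and 4155 at 24 months. The 24-month values lay in the lower part of the young range, and 1 lay below it. Its change was -0.23 (interval -0.46 to 0.01, adjusted p = 0.539 in limma). Between 12 and 24 months *Klf5* differed by -0.23, with 4 of 5 libraries at 24 months below every 12-month one (exact permutation p = 0.0317, limma adjusted p = 0.36). The exact tests of single factors were 70, for 10 factors in 7 comparisons, and their p-values are unadjusted.

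The 2 ETS factors, which regulate epithelial differentiation, had higher means at 24 months than in the young group. *Elf3* (NCBI gene 13710, chr1:135253574-135258472, minus strand) read 1322, 2334, 2624, 2552 and 3201 normalized counts in the young libraries and 2805, 2491, 3099, 2958 and 3178 at 24 months. Every 24-month value lay inside the wide young range, whose low end was again replicate 1. The change at 24 against 2 months was 0.32 (interval -0.01 to 0.66, adjusted p = 0.522 in limma), and 0.12 without that library. The trend of *Elf3* with age was 0.35 over 22 months (interval 0.03 to 0.68), with an unadjusted p of 0.0327 and an adjusted p of 0.435 in limma. Between 12 and 24 months it differed by 0.35, with 4 of 5 libraries at 24 months above every 12-month one (exact permutation p = 0.0238, limma adjusted p = 0.322). *Ehf* (NCBI gene 13661, chr2:103263431-103303275, minus strand) read 9562, 4940, 5519, 5617 and 7231 in the young libraries and 7896, 7430, 7811, 6439 and 5307 at 24 months. All 24-month libraries lay inside the young range, and the change was 0.11 (interval -0.19 to 0.41, adjusted p = 0.851 in limma). Without young replicate 1 it was 0.26, and over the other libraries left out it ran from 0.02 to 0.21, without a call.

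*Trp63* (NCBI gene 22061, chr16:25683763-25892088, plus strand) averaged 553 ± 48.0 normalized counts when young and 578 ± 60.8 at 24 months. Age accounted for 6.51% of its variation, and the change of 0.06 had an interval of -0.22 to 0.34 (adjusted p = 0.931 in limma). Counts per gene do not separate its isoforms, of which the annotation has 8. The grainyhead-like factors act on epithelial junctions and the barrier. *Grhl2* (NCBI gene 252973, chr15:37232821-37363569, plus strand) had means of 351 ± 58.0 at 2 months and 384 ± 63.3 at 24 months, a change of 0.13 (interval -0.19 to 0.45, adjusted p = 0.831). *Grhl3* (NCBI gene 230824, chr4:135541887-135573632, minus strand) rested on 89 to 200 reads per library, and its mean was 140 ± 18.4 at 2 months and 135 ± 25.6 at 24 months, a change of -0.05 (interval -0.56 to 0.45, adjusted p = 0.974 in limma). *Foxc1* (NCBI gene 17300, chr13:31806646-31810635, plus strand) had means of 1742 ± 261 and 1665 ± 242 at these ages, a change of -0.06 (interval -0.34 to 0.21, adjusted p = 0.924 in limma).

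**Figure D2:**
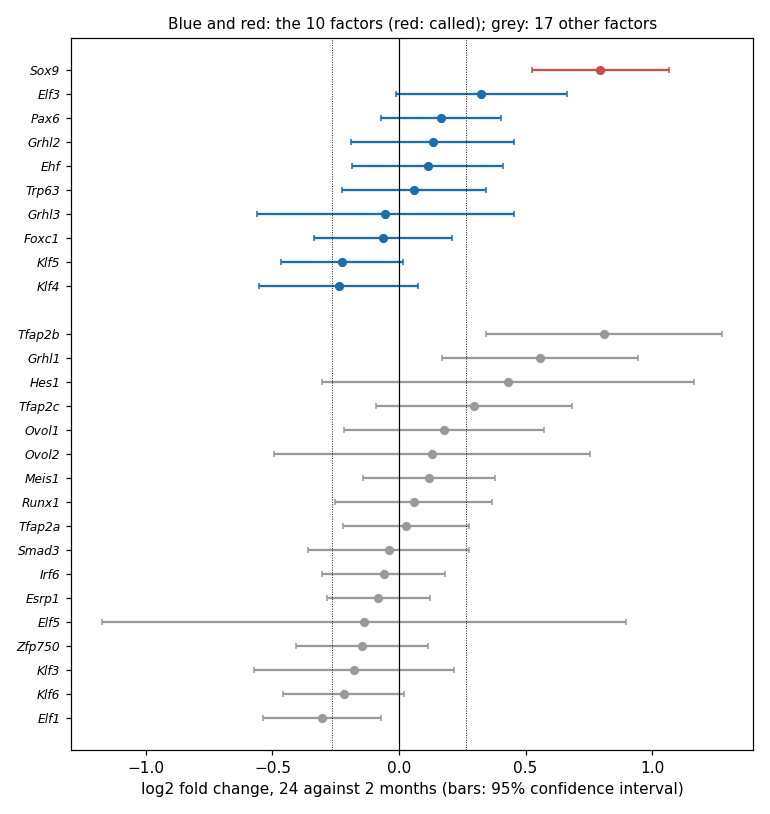
Log2 fold change at 24 against 2 months (horizontal axis) with its 95% confidence interval from limma, for the 10 factors (blue, with the called *Sox9* in red) and 17 further factors (grey). Dotted lines mark 1.2-fold. *Sox9* at 0.80 is the 1 DEG, and of the grey genes *Tfap2b* at 0.81 has the wider interval, 0.34 to 1.28.

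The balance between related factors was tested inside each library, where scaling cancels. The log2 difference of *Klf5* minus *Klf4* was -1.63 ± 0.21 at 24 months and -1.65 ± 0.43 at 2 months (SD, n = 5, exact permutation p = 0.96). That of *Ehf* minus *Elf3* was 1.25 ± 0.34 and 1.46 ± 0.78 (exact permutation p = 0.786), and that of *Grhl3* minus *Grhl2* was -1.50 ± 0.38 and -1.32 ± 0.32 (exact permutation p = 0.429). The 2-month SD was the larger for the first 2 pairs. The 12 tests of these pairs, over 12, 18 and 24 months and all aged libraries, gave adjusted p-values of 1.

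A list of 18 other epithelial and ocular factors gave the wider setting. Of these, 17 were tested, and 0 were DEGs in any of the 6 comparisons, by limma. At an unadjusted limma p below 0.05, 3 stood at 24 against 2 months, beside 9.97% of all tested genes. Their changes at 24 months ran from -0.30 to 0.81 with a median of 0.03. *Tfap2b*, a neural crest and epithelial AP-2 factor, was 112 to 234 normalized counts in the young libraries and 235 to 464 at 24 months, which did not overlap, with a change of 0.81 and an adjusted p of 0.11 in limma. *Elf1*, a broadly expressed ETS factor, was 1153 to 1524 in the young libraries and 1055 to 1124.5 at 24 months, also without overlap, with a change of -0.30 and an adjusted p of 0.322 in limma. *Grhl1*, another grainyhead-like gene, had a change of 0.56 (interval 0.17 to 0.94, adjusted p = 0.225 in limma).

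Genes of the differentiated tissue were counted in the same way. Of 21 tested genes of corneal epithelium, 1 was a DEG at 24 months, *Aldh1a1*, an aldehyde dehydrogenase that also makes retinoic acid, with a change of 0.67 (adjusted p = 0.0232 in limma), and the median of the list was 0.11. *Aldh1a1* was also called higher at 18 months, in the comparison of all aged libraries and in the trend. An unadjusted limma p below 0.05 at 24 against 2 months was found for 5 of the 21, beside 9.97% of all tested genes. Of 6 tested genes listed for the limbus, where SOX9 and p63 are known from progenitor cells, 0 were called in any comparison by limma. At an unadjusted limma p below 0.05, 2 of the 6 stood at 24 against 2 months, beside 9.97% of all tested genes. The median change of the 6 at 24 months was 0.11. Among 9 tested genes of skin and conjunctiva, *Krt4*, a keratin of conjunctiva and other moist linings, fell by 1.54 at 24 months and *Sprr1a*, a cornified envelope protein, rose by 1.54. Unadjusted limma p lay below 0.05 at 24 against 2 months for 5 of these 9. *Krt19*, a keratin of conjunctiva and limbus, fell at 12 and 18 months and in the comparison of all aged libraries. Among 10 keratocyte genes 7 fell at 24 months (*Col1a1*, *Col1a2*, *Col3a1*, *Col5a2*, *Col6a1*, *Dcn* and *Sparc*, median of the list -3.13), *Col5a1* fell in the comparison of all aged libraries, and of 6 tested gland genes 5 fell (*Lcn11*, *Mup4*, *Obp1a*, *Pip* and *Scgb2b2*, median -5.90). *Foxc1*, which is also known from stromal cells, was not called in any comparison, and the share of its reads from such cells was not tested. Of the listed immune genes 5 were tested, of the melanocyte genes 2, and of the genes of vessels and corneal endothelium 2 (*Col8a1* and *Slc4a11*), and limma called none of these 9. The vessel genes *Pecam1* and *Cdh5* were below the filter. *Col8a2* of the endothelium and *Lpo* of the glands, also below it, were lower at 24 than at 2 months without overlap. Of 8 early response genes, *Junb* was called, in the trend with age.

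Within ages, some of the factors varied together. After the mean of each age was subtracted from the log2 values, 6 of the 45 pairs of factors were correlated over the 20 libraries at an adjusted permutation p of 0.05 or less, and all 6 lay among *Pax6*, *Foxc1*, *Klf4* and *Ehf*. *Pax6* and *Foxc1* varied together (r = 0.77, adjusted permutation p = 0.00698, rho = 0.67), as did *Klf4* and *Ehf* (r = 0.81, adjusted permutation p = 0.00645, rho = 0.74). Libraries with more of the first pair had less of the second. *Pax6* ran against *Ehf* with r = -0.83 (adjusted permutation p = 0.0018, rho = -0.89) and against *Klf4* with r = -0.72 (adjusted permutation p = 0.0212, rho = -0.71). *Foxc1* ran against *Klf4* with r = -0.83 (adjusted permutation p = 0.00383, rho = -0.75) and against *Ehf* with r = -0.70 (adjusted permutation p = 0.0112, rho = -0.63). By rho, the pairs *Pax6* with *Foxc1* and *Ehf* with *Foxc1* had adjusted permutation p-values of 0.0532 and 0.0543, and the other 4 passed. Without the 2 libraries farthest from the median, r kept its sign in all 6 pairs, at 0.70, 0.68, -0.84, -0.63, -0.73 and -0.56 in the order given.

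**Figure D3:**
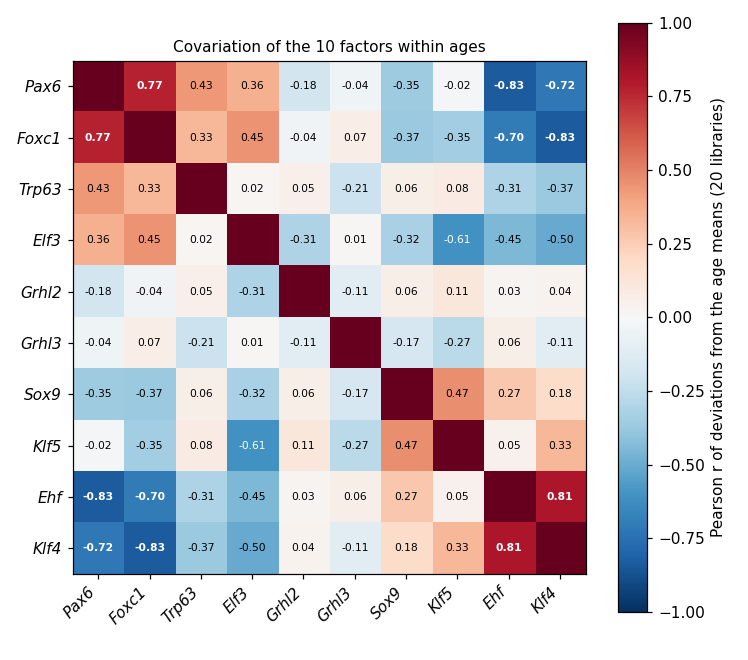
Pearson r (colour and number) between the log2 deviations of each pair of factors from their age means, over 20 libraries. Bold marks the 6 pairs with an adjusted permutation p of 0.05 or less, all among *Pax6*, *Foxc1*, *Ehf* and *Klf4*, with *Pax6* and *Foxc1* (r = 0.77) opposed to *Klf4* and *Ehf* (r = 0.81).

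Some single libraries show the opposition. Young replicate 1 held the lowest young values of *Pax6* (3887) and *Foxc1* (1315) and the highest of *Klf4* (28132) and *Ehf* (9562). Of the 12-month libraries, replicate 1 was highest for *Pax6* (5279) and *Foxc1* (1969) and lowest for *Klf4* (13928) and *Ehf* (6572). Replicate 5 of that age was lowest for *Pax6* (3580) and *Foxc1* (1259) and highest for *Ehf* (8911). At 24 months replicate 3 had the lowest *Pax6* (4597) and *Foxc1* (1311) and the highest *Klf4* (19450). At 18 months replicate 4 was highest for *Pax6* (5391) and lowest for *Klf4* (14720) and *Ehf* (6148). Replicate 5 of that age went against the pattern, as the highest for both *Foxc1* (1892) and *Ehf* (8324).

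The 4 factors shared this pattern with many genes. The first principal component of the deviations of all 11288 tested genes from their age means held 15.975% of the variance, and the score of a library on it was set to rise with *Pax6*. The deviations of *Pax6* followed it with r = 0.73 and those of *Foxc1* with r = 0.76, and those of *Klf4* and *Ehf* ran against it with r = -0.82 and -0.84. *Sox9* had r = -0.18 with it, *Grhl2* 0.08, *Grhl3* -0.14, *Klf5* -0.28, *Elf3* 0.49 and *Trp63* 0.56. Over tested genes the median of the absolute r was 0.34, and 12.4% exceeded 0.7. Without the 2 libraries farthest from the median score, r was 0.59 for *Pax6*, 0.63 for *Foxc1*, -0.74 for *Klf4* and -0.77 for *Ehf*. For *Elf3* it was then 0.02, for *Klf5* -0.10 and for *Trp63* 0.46. These r are descriptions, since the component was computed from the same libraries and genes.

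Other measures of the libraries moved with the component. Its score fell with the share of reads on the 10 most abundant genes of a library (r = -0.73, rho = -0.64, adjusted permutation p = 0.00246), with the slope of the deviations on transcript length (r = -0.73, rho = -0.72, adjusted permutation p = 0.00246) and with their slope on GC content (r = -0.62, rho = -0.59, adjusted permutation p = 0.0104), and its relation to the number of reads had r = 0.46 (rho = 0.50, adjusted permutation p = 0.0586 for r and 0.0397 for rho). Without the 2 farthest libraries these r were -0.75, -0.66, -0.54 and 0.42. Lengths and GC contents were known for 96.2% of tested genes. Both slopes were computed from the same deviations as the component, so their r are descriptions. Their p-values do not test a separate property of the libraries. The library with the lowest score, young replicate 1, had 34.9% of its reads on 10 genes, the highest share of all. With the component taken out of both factors, r was 0.48 for *Pax6* with *Foxc1*, 0.38 for *Klf4* with *Ehf*, -0.59 for *Pax6* with *Ehf*, -0.30 for *Pax6* with *Klf4*, -0.56 for *Klf4* with *Foxc1* and -0.18 for *Ehf* with *Foxc1*. The part of RNA quality and library preparation in these relations was not tested.

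**Figure D4:**
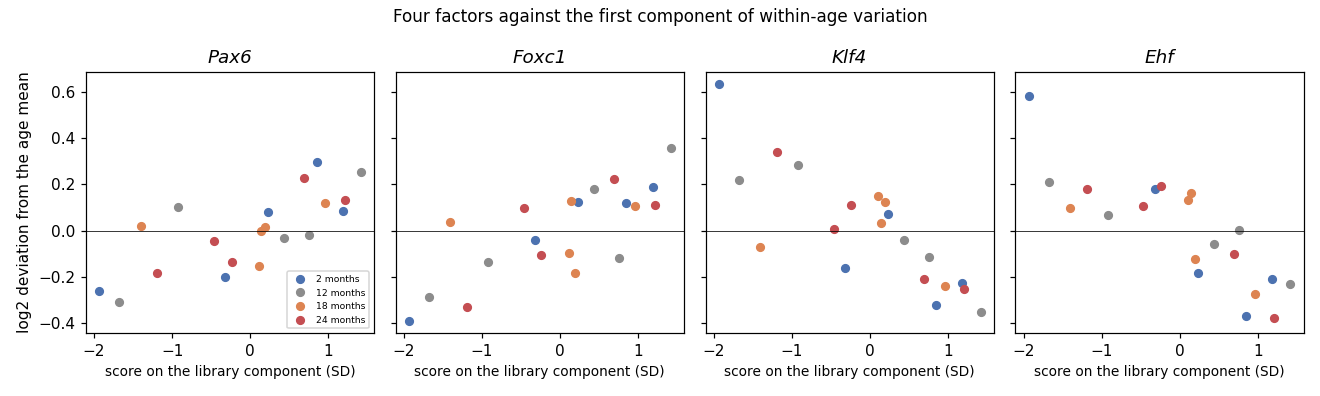
Log2 deviation of *Pax6*, *Foxc1*, *Klf4* and *Ehf* from the mean of the age (vertical axis) against the component score (horizontal axis, in SD), that is the first principal component of within-age variation. Points are the 20 libraries coloured by age. *Pax6* and *Foxc1* rise along the axis (r = 0.73 and 0.76) and *Klf4* and *Ehf* fall (r = -0.82 and -0.84), and the point farthest to the left is young replicate 1.

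The genes most like each of these factors over the 20 libraries were also outside the list. *Foxc1* was followed most closely by *Rps3a1*, a ribosomal protein gene (r = 0.92), *Abracl* (0.89) and *Siah1a* (0.88). *Klf4* was followed by *Braf*, a kinase of the MAPK pathway (r = 0.91), *Kalrn* (0.90) and *Baz2a* (0.89), and *Ehf* by *Taf1*, a subunit of TFIID (0.87), *Suco* (0.86) and *Slc29a3* (0.86). *Pax6* was followed by *Plcd1* (0.87), *Hs3st3b1* (0.87) and *Srebf1*, a regulator of lipid synthesis (0.86). For *Klf5* these were *Prdx6*, *Zc3h6* and *Ncor1* (0.80 to 0.87), for *Elf3* *Sh3bp1*, *Sec24c* and *Scap* (0.85 to 0.86), for *Trp63* *Ss18l2*, *Wbp4* and *Tti2* (0.75 to 0.76), for *Grhl2* *2310039H08Rik*, *Mapk8ip1* and *Pitpna* (0.69 to 0.74) and for *Grhl3* *Tmem170b*, *Alg5* and *Sharpin* (0.69 to 0.81). None of these followers of the 9 factors other than *Sox9* was a DEG at 24 against 2 months.

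Promoter sequences were at hand for 3 of the 4 factors that varied together, and these are shown. Whether any of these factors acts on the promoter of another was not tested. Each covers 250 bases before to 50 bases after an annotated start, from RefSeq on GRCm38.p6, written 5′ to 3′ on the strand of the gene. Capitals mark CACCC, the core of a KLF-type site, or GGGTG, its reverse complement. For *Pax6*, which has a second annotated start with its own promoter downstream, the upstream one is given.
*Pax6*, chr2:105668646-105668945, plus strand: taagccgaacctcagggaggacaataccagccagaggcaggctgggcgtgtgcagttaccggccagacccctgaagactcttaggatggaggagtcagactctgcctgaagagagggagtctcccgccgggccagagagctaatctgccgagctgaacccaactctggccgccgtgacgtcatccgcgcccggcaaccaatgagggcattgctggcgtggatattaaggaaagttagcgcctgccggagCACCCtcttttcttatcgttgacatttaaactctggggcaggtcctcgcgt
*Foxc1*, chr13:31806396-31806695, plus strand: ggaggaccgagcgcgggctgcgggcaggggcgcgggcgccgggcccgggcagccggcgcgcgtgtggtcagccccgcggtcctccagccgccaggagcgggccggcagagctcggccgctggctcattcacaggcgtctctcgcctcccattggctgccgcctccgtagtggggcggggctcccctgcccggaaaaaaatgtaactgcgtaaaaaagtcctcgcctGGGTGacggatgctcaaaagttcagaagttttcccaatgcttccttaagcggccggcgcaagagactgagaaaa
*Klf4*, chr4:55532426-55532725, minus strand: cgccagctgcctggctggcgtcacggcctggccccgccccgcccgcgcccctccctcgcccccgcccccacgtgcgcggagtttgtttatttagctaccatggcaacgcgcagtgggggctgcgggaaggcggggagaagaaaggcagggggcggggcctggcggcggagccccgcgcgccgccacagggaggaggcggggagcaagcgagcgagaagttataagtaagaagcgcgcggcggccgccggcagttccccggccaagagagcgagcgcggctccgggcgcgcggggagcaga

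The *Pax6* window and the *Foxc1* window each held 1 such match, on opposite strands, and the *Klf4* window held 0, where 57.5% of the 32851 promoters of this length hold at least 1 on either strand. The second *Pax6* promoter, at chr2:105682213-105682512 with a GC content of 46.3%, also held 0. *Elf3* and *Grhl3*, which were not among the correlated pairs, held 2 and 3. GGGCGG, the GC box, was found on either strand 4 times in the *Klf4* window, 1 time in that of *Foxc1* and 0 times in that of *Pax6*, and in 35.7% of all promoters. TATAAA was in none of the 3 windows on either strand and in 13.6% of all promoters. No match of one motif overlapped one of another in these windows. The GC content was 58.7% for *Pax6*, 67.3% for *Foxc1* and 74.3% for *Klf4*, against a median of 52.7% over all promoters. A match of letters describes the window and does not show that a factor binds there. Of the 10 factors 5 matched an entry of the promoter table, the others being *Elf3* and *Grhl3*.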

How the data were processed

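Per the authors' methods and the labels, 3′ libraries were made with an oligo-dT primer and cutadapt was used for trimming, STAR for alignment to GRCm38, HTSeq for counting on genes and DESeq2 for size factors. Versions are not given in the sources used here. The authors deposited log2 values of normalized counts with a pseudocount of 1. The size factor of each library was estimated here from these values, by fitting the step that makes the low ones whole multiples. Read numbers are thus inferred. Multiplied back by these size factors, 100% of values came within 0.01 of whole reads, which is partly a result of that fit. Columns of the authors' own comparisons, which hold fold changes and p-values, were not used.

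Groups came from the labelled ages, and libraries of an age are separate animals. The 11288 genes that averaged 10 or more normalized counts were fitted with limma 3.58.1 (R 4.3.3) with a variance trend and Benjamini-Hochberg adjustment over all of them. The comparisons of single ages came from 1 fit of 4 groups, those of all aged libraries from a fit of 2 groups, and the trend from the lower labelled age. Exact permutation tests were two-sided and run on log2 values (Python 3.11.15, numpy 2.4.6, scipy 1.17.1). Correlations used deviations from age means and 100000 permutations within ages. The fits were tested on simulated data. Gene positions came from RefSeq and transcripts from GENCODE.

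The 10 factors and the gene lists were chosen with earlier results of these data known. Genes named were the 10 factors, listed genes that were called or did not overlap between 24 and 2 months, and for each factor the 3 genes most correlated with it, of which 1 is not reported here. *Grhl1*, *Krt12*, *Krt13*, the ratio of *Sox9* to *Pax6*, the comparisons between neighbouring aged groups, the library component and the promoter motifs were added after values were seen. Alternatives were quantile normalization, no filter or one at 50, a fit of 2 ages alone, a block for the replicate number, pseudocounts of 0.1 and 10, voom on recovered reads, no fold threshold and leaving out each library. The precision is limited by 5 animals per age and, for *Grhl3*, by its low counts.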

Additional observations from a re-analysis of the deposited data

Results flagged for a closer look

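In each age, the 5 libraries of each factor were searched for a value apart from the others (gap to the nearest value over the range of the 5 above 0.71). Of 40 groups, 3 met this, all for the grainyhead-like factors, and chance alone gives about 1 in 20. *Grhl2* in 12-month replicate 2 was at 263.1 normalized counts, where the other 4 libraries ran from 401.8 to 443.04. *Grhl2* in 24-month replicate 3 was at 492.9, where the others ran from 333.2 to 376.8. *Grhl3* in 24-month replicate 5 was at 180.7, where the others ran from 121.8 to 128.7. The change of *Grhl2* at 24 against 2 months ran from 0.04 to 0.21 and that of *Grhl3* from -0.16 to -0.01 over 28 alternatives each, and neither was called in any of them.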

How the results depend on the processing

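*Sox9* kept its direction under all alternatives run. At 24 against 2 months its change ran from 0.70 to 0.85 over 28 alternatives with adjusted p-values from 0.000436 to 0.00601 in limma, and its call in all aged libraries and in the trend was kept over 27 each. At 18 against 2 months the number of factors called ran from 0 to 1 over libraries left out. The other 9 factors were called in no alternative run at 24 against 2 months. Without 1 library, the changes of these 9 at 24 against 2 months moved by over 1.5 times, among them without young replicate 1 (*Klf4* -0.08, *Ehf* 0.26, *Elf3* 0.12, *Pax6* 0.10 and *Grhl3* -0.09), with *Klf5* at -0.14 without young replicate 2, *Trp63* from 0.01 to 0.11 and *Grhl2* from 0.04 to 0.21. Signs of small differences turned. *Foxc1* ran from -0.16 to 0.0188, above 0 without 24-month replicate 3, the log2 difference *Klf5* minus *Klf4* ran from -0.11 to 0.17 and *Ehf* minus *Elf3* from -0.31 to 0.14 over libraries left out.

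Counts over all genes moved more. At 24 against 12 months they were 0 with no filter, 35 with a filter at 50 and 11 with only the groups compared, against 22, and 0 to 84 over libraries left out. At 12 against 2 months they were 39 with only the groups compared and 38 with voom, against 60, and 38 to 96 over libraries left out, and at 24 against 2 months 54 to 96, against 88.

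With the replicate number as a block, the same numbers of factors were called in all 6 comparisons (*Sox9* at 24 against 2 months 0.80, adjusted p = 0.00187 in limma) and 11 genes at 24 against 12 months. Libraries of different ages that share a number had a median correlation of deviations of 0.01 (-0.30 to 0.16). For those with different numbers it was 0.0035 (-0.27 to 0.29). These ranges overlap, so no pairing by number shows here, and a batch behind the numbers was not tested.

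With 5 animals per age, the intervals of the 9 factors without a call at 24 against 2 months reach 0.66 (*Elf3*) and -0.56 (*Grhl3*). Source and batch of the mice were not tested. Counts per gene separate no isoforms and no cells.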
